A study of Mus musculus with 2 samples.

Results

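Club cells are the secretory cells of the small airways, and 6 genes that they are known to use were followed here across 2 single-cell libraries of mouse lung. The genes were Scgb1a1, Scgb3a1, Scgb3a2, Cyp2f2, Bpifa1 and Aldh1a1, and they were taken as a named set of 6 from the 27999 genes listed in each library. They were chosen by name and not by a difference between the libraries, though with earlier results of these data known. Each was found in the gene list of both libraries by its symbol.

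Secretoglobins are small secreted proteins that club cells release onto the airway surface, where they are among the most abundant proteins of airway lining fluid. Scgb1a1 encodes uteroglobin, also called club cell secretory protein, and is the standard marker of the cell. Scgb3a1 and Scgb3a2 encode related small secretoglobins of the airway. Bpifa1 encodes SPLUNC1, a lipid-binding defense protein of the upper airway. Cyp2f2 encodes a cytochrome P450 that oxidizes naphthalene, the reaction that makes club cells sensitive to that compound. Aldh1a1 encodes a cytosolic aldehyde dehydrogenase that makes retinoic acid from retinal and is used in many cell types outside the airway. Club cells can also renew themselves and give rise to ciliated cells, and alveolar type 1 (AT1) and type 2 (AT2) cells line the air sacs beyond them.

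Both lungs came from female FVB/NJ mice that were 10 weeks old at tail vein injection with Met-1, a carcinoma line of the mouse mammary gland. The lung with a low metastatic burden was collected at week 1 and the lung with a high metastatic burden at week 3, with 1 mouse and 1 library per group. Neither group was left without tumor cells, time after injection differed together with burden, and so burden, time and the individual mouse cannot be told apart. Whole lungs were enzymatically dissociated, and no sort for epithelium is named.

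There were no replicates, so no test between the lungs was made. All intervals below are exact 95% intervals that cover counting error only. Levels are given in CPM, the unique molecular identifiers (UMIs) of a gene for every 1000000 UMIs of the cells summed. UMIs were not scaled for transcript length, so levels of different genes are not ranked against each other.

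The low-burden library held 14041471 UMIs over 2668 cells and the high-burden library 52723173 UMIs over 3121 cells, and filtering left 2473 and 3033 cells with medians of 4073 and 13998 UMIs. The libraries shared 11 cell barcodes. Clusters were built without the 6 genes, and 246 low-burden and 132 high-burden cells fell into epithelial clusters. Of these, 16 and 23 cells formed the club-like cluster, in which 15 of 22 other club markers passed the marker rule. Another 8 and 11 cells formed a cluster that carried 14 of 14 ciliated and 13 of 22 club markers, and these are called mixed airway cells. Whether their droplets held 1 cell or more cannot be told apart, and Scrublet marked none of them or of the club-like cells. Ciliated-like cells numbered 56 and 11, AT2-like cells 106 and 44, and AT1-like cells 36 and 10. The high-burden library also held 1396 metastatic-like cells, and the low-burden library held 0.

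Positions in the mm10 assembly are given for 5 of the genes. Scgb1a1 (ENSMUSG00000024653) lies at chr19:9083636-9087958 on the reverse strand. Aldh1a1 (ENSMUSG00000053279) lies on the same chromosome at chr19:20492715-20643465 on the forward strand. Cyp2f2 (ENSMUSG00000052974) spans chr7:27119909-27133660, Bpifa1 (ENSMUSG00000027483) chr2:154142880-154149219 and Scgb3a1 (ENSMUSG00000064057) chr11:49663610-49665118, all on the forward strand. Scgb3a2 is ENSMUSG00000038791. Aldh1a1 has a near-identical neighbor, Aldh1a7, at chr19:20692953-20727562, and reads between these copies could have been split or lost in counting, so Aldh1a1 counts are uncertain to that extent. Aldh1a1 is also overlapped by 2 genes and Cyp2f2 by 1 gene on the opposite strand.

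The sequences just before the transcription starts show what the 4 genes with an entry in the RefSeq promoter table (GRCm38.p6) share by sequence. Entries were found for 4 of the 6 genes, and Scgb1a1 and Scgb3a2 are named only. Each window holds the 250 bases before the start, on the forward strand, and the capitals mark motif matches on either strand. The motif CTCAAG is the core site of NKX2-1, a transcription factor of lung epithelium. The motif TGTTTNC is bound by forkhead factors, which are also at work in airway cells. The TATA box was searched as TATAAA, a site that places the start of transcription. No match overlapped another in the windows shown. The windows lie at chr11:49663345-49663594 for Scgb3a1, chr2:154142630-154142879 for Bpifa1, chr7:27119705-27119954 for Cyp2f2 and chr19:20601718-20601967 for Aldh1a1.
Scgb3a1: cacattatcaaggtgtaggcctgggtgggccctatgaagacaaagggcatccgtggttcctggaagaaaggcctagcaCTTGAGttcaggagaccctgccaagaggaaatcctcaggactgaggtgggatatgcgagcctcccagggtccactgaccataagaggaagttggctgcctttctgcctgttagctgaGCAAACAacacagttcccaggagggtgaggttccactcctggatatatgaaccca
Bpifa1: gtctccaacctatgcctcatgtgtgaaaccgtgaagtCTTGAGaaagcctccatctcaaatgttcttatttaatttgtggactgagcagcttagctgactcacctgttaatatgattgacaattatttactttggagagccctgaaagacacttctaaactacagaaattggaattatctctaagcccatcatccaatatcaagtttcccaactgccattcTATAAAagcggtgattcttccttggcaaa
Cyp2f2: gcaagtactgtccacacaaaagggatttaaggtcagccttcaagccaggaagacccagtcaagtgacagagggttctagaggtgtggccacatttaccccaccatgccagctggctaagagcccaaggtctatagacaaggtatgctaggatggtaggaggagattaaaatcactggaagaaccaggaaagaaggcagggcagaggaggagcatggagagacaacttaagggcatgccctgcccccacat
Aldh1a1: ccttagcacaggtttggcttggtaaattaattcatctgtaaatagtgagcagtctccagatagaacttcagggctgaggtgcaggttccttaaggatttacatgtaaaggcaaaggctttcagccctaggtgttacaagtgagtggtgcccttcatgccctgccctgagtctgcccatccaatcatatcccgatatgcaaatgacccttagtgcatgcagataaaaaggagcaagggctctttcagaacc

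The NKX2-1 letters stood on the reverse strand 172 to 167 bases before the Scgb3a1 start and 213 to 208 bases before the Bpifa1 start. Scgb3a1 also held the forkhead letters 55 to 49 bases before its start, and Bpifa1 a TATA box 29 to 24 bases before its start. The windows of Cyp2f2 and Aldh1a1 held none of these letters, and neither did the window of a second Aldh1a1 start at chr19:20492333-20492582. Among the same 250-base windows of all 32851 promoters in the table, 13.3% held the NKX2-1 letters, 17.8% the forkhead letters and 12.4% the TATA box. A match describes the letters and is not a measured binding site.

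Scgb1a1 took about as many UMIs in club-like cells as all other genes together. It gave 216747 of 413123 UMIs in the low-burden cells and 230406 of 508569 in the high-burden cells, or 52.5% and 45.3%. Its level was 524655 CPM (522448 to 526868) in the lung with a low burden and 453048 CPM (451200 to 454901) in the lung with a high burden. Together the 6 genes made up 55.8% and 49.8% of all UMIs of club-like cells. Club-like cells were deeply sampled, with medians of 27996.5 and 21743 UMIs against 36486.5 and 16442 in mixed airway cells and 5332.5 and 6088 in AT2-like cells.

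Individual club-like cells were alike in Scgb1a1 once a single cell of each library was set aside. Among 15 low-burden cells the Scgb1a1 share of UMIs ran from 31.7% through a median of 53.1% to 65.7%. Among 22 high-burden cells it ran from 32.6% through a median of 48.5% to 59.8%, so the cells of the lungs overlapped over nearly the whole range. The cells set aside held 53 of 6878 UMIs (0.771%) and 24 of 11855 UMIs (0.202%) of Scgb1a1. Both still carried club genes, with 43 and 76 UMIs of Cyp2f2 and 41 and 110 UMIs of Cbr2, and both held UMIs of Krt5, a keratin of airway basal cells (5 and 7 UMIs), while Trp63, the basal cell transcription factor, gave 2 UMIs in the high-burden cell.

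**Figure D1:**
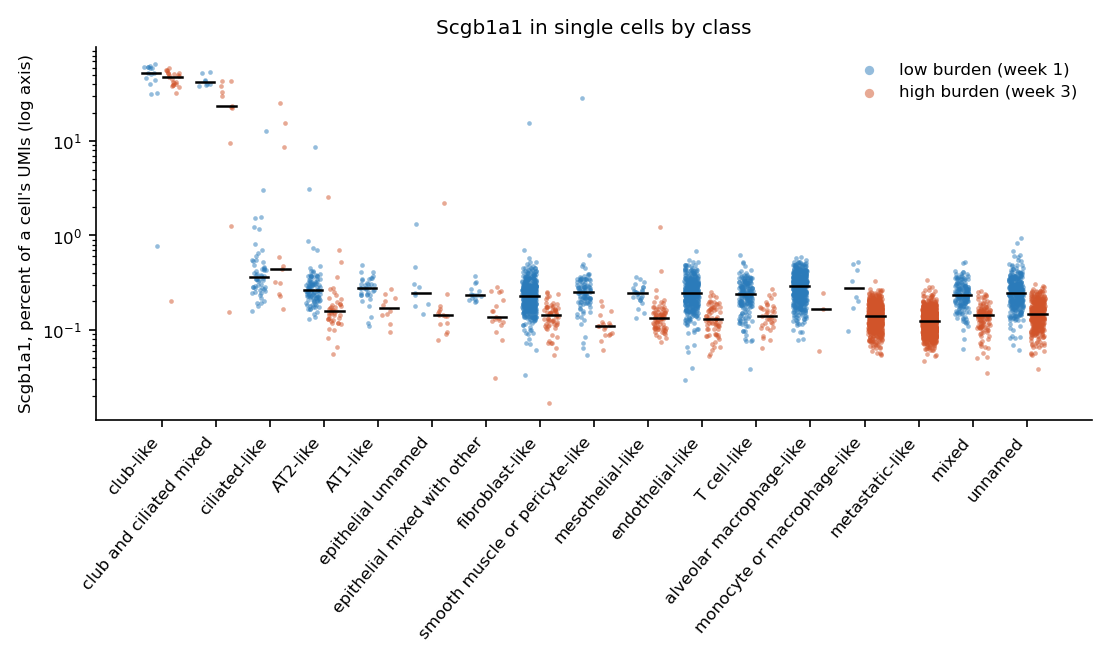
Share of each cell's UMIs that were Scgb1a1 (percent, log axis) by cell class, with 1 point per cell, black lines at the medians and the lungs with a low and a high metastatic burden side by side. Club-like cells sat between 31.7% and 65.7% apart from 1 cell per library under 1%, while the cells outside the epithelium formed a band under 1% with 3 cells above it.

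Scgb3a1 split the club-like cells into a pair of kinds with nothing between them. In the lung with a low burden, 4 of 16 cells held 145 to 1521 Scgb3a1 UMIs and the other 12 held 0 to 6. In the lung with a high burden, 7 of 23 cells held 100 to 2774 UMIs and the other 16 held 0 to 3. The share of the high kind was 25% (7.27 to 52.4) and 30.4% (13.2 to 52.9), which did not differ within counting error. The dividing value of 100 UMIs was chosen after the cells were seen, and the differences that follow are descriptions of these 39 cells.

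Cells with high Scgb3a1 carried other secreted products of the larger airways. Tff2, a trefoil peptide of mucous epithelia, was found in 4 of 4 and 6 of 7 of them and in 0 of 12 and 1 of 16 of the rest. Muc5b, a gel-forming airway mucin, was found in the same numbers of cells. Bpifb1, a secreted relative of Bpifa1, stood at 1237 and 2176 CPM in the high kind and 3.24 and 20.4 CPM in the rest. Reg3g, an antimicrobial lectin, stood at 1189 and 1709 CPM against 0 and 8.73 CPM, and Ltf, which encodes lactoferrin, at 930 and 436 CPM against 0 and 8.73 CPM. Scgb3a2 stood at 29343 and 41644 CPM in the high kind and at 12803 and 14390 CPM in the rest, so it was present in both kinds. The summed level of Scgb1a1 was lower in the high kind in both lungs (455199 and 444649 CPM against 548108 and 457081), and its counting intervals did not overlap. Its cell medians were 453129 against 592103 CPM at low burden. At high burden the cell medians went the other way, 480890 against 476010 CPM. Cyp2f2 (4852 and 4400 CPM against 5051 and 3923) had overlapping intervals in both lungs. At low burden Aldh1a1 stood at 700 CPM (549 to 880) against 1026 CPM (917 to 1146), with cell medians of 685 and 686 CPM. At high burden Aldh1a1 stood at 861 against 879 CPM, and the intervals overlapped. Median depth in the kinds was 26670 and 23537 UMIs against 27996.5 and 18459.

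Not every secreted product followed Scgb3a1. Scgb1c1, a further secretoglobin, was lower in the high kind (192 and 103 CPM) than in the rest (466 and 279 CPM), and Chia1, an acidic chitinase, stood at 9.59 and 6.06 CPM against 42.1 and 172 CPM. Wfdc2, a protease inhibitor of airway secretions, was higher (7134 and 9673 CPM against 3866 and 5341), as was Pigr, the receptor that carries immunoglobulin A across epithelia (268 and 188 CPM against 48.6 and 61.1). Hp, which encodes haptoglobin, was lower (3423 and 3000 CPM against 5003 and 4215).

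Bpifa1 was the rarest of the 6 genes per cell and sat inside the cells with high Scgb3a1. It was found in 2 of 4 and 5 of 7 cells of that kind, with 889 and 110 UMIs in sum, and in 1 of 12 and 0 of 16 of the rest, with 1 and 0 UMIs. Both genes carried the NKX2-1 letters in the windows printed above, and no link between the letters and the cells was tested. In the lung with a low burden a single cell held 836 of its 890 UMIs (93.9%). Over all 39 club-like cells the correlation of log2(CPM + 10) between Scgb3a1 and Bpifa1 was 0.704 (Spearman 0.561), and between Scgb3a1 and Scgb3a2 it was 0.429 (Spearman 0.625). The cells share 2 libraries and differ in depth, so these correlations are descriptions.

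**Figure D2:**
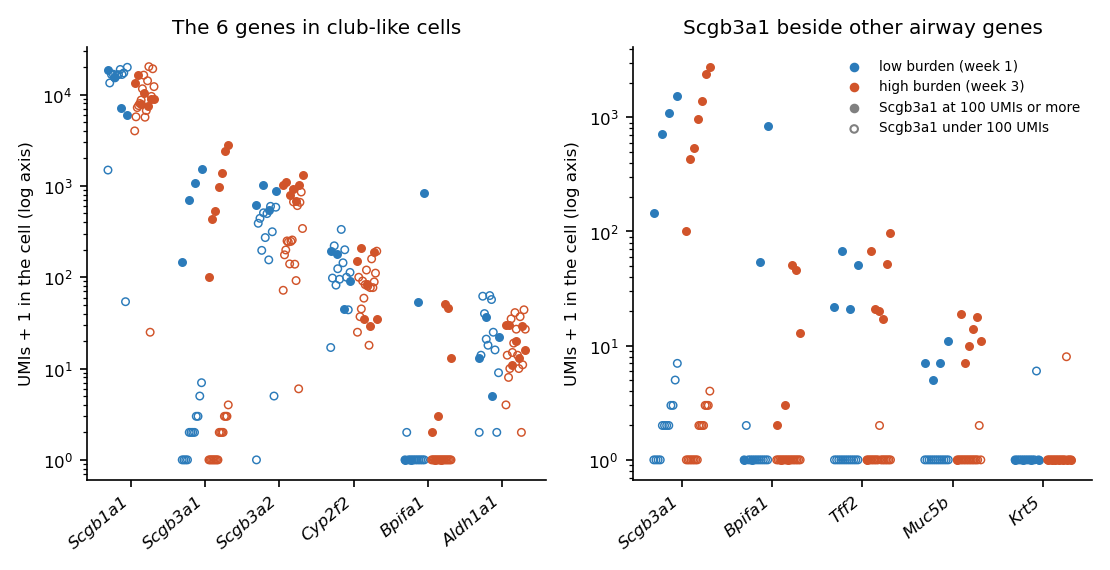
UMIs + 1 (log axis) of the 6 genes (left) and of Scgb3a1 beside Bpifa1, Tff2, Muc5b and Krt5 (right) in each club-like cell, with 1 point per cell, the lungs with a low and a high metastatic burden side by side, and filled points for cells with at least 100 Scgb3a1 UMIs. Scgb3a1 leaves an empty stretch between 6 and 100 UMIs in both lungs, and Bpifa1 stands high in the low-burden lung in a single cell with 836 UMIs.

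Scgb3a2, Cyp2f2 and Aldh1a1 were spread over the club-like cells. With the same 2 cells set aside, Scgb3a2 ran from 0 through a median of 1.75% to 4.76% of a low-burden cell's UMIs and from 0.366% through 1.67% to 5.56% in the high-burden cells. Cyp2f2 ran from 0.285% through 0.458% to 0.813% and from 0.135% through 0.353% to 0.691%. Aldh1a1 ran from 0.0213% through 0.0760% to 0.190% and from 0.0362% through 0.0857% to 0.174%. For each of these genes the cells of both lungs overlapped over most of their range.

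Between the lungs, the summed levels of the 6 genes in club-like cells moved in different directions and mostly by little. Of the 6 genes, 1 (Scgb3a1) was 2-fold or more higher in the lung with a high burden and 1 (Bpifa1) was 2-fold or more lower, where 11.0% of the 2979 genes with at least 20 UMIs were 2-fold or more higher and 3.86% were 2-fold or more lower. Scgb3a1 went from 8404 to 16922 CPM, a log2 ratio of 1.01 (0.95 to 1.07). Nearly all of these UMIs lay in the cells with high Scgb3a1, 3454 of 3472 at low and 8593 of 8606 at high burden. Across those 4 and 7 cells the summed level was 33121 and 52081 CPM, and the cell medians were 45162 and 44428 CPM. Scgb3a2 went from 16978 to 23232 CPM, a log2 ratio of 0.45 (0.41 to 0.50). Scgb1a1 had a log2 ratio of -0.21 (-0.22 to -0.20), and Cyp2f2, from 5001 to 4078 CPM, one of -0.29 (-0.38 to -0.21). Aldh1a1, from 944 to 873 CPM, had a log2 ratio of -0.11, and its interval held 0 (-0.31 to 0.09).

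Bpifa1 went from 2154 to 216 CPM, a log2 ratio of -3.32 (-3.62 to -3.03), and this rested on 1 low-burden cell. Without the cell with the most Bpifa1 in each library, the log2 ratio was -0.16. For Scgb3a1 the same step gave 1.28, and when each cell was weighted equally it gave 0.57.

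The scaling matters for these ratios because the 6 genes fill about as much of the total as all other genes do. The median log2 ratio of the other 2973 genes was 0.22 (quartiles -0.19 and 0.61), and it was 0.03 with the 6 genes left out of the total. On that scale the log2 ratios were -0.39 for Scgb1a1, 0.83 for Scgb3a1, 0.27 for Scgb3a2, -0.48 for Cyp2f2, -3.50 for Bpifa1 and -0.30 (-0.50 to -0.10) for Aldh1a1. No member changed sign, but the Aldh1a1 interval then left 0 out and Scgb3a1 was no longer 2-fold.

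Club-like cells were 6.5% of epithelial cells in the lung with a low burden (3.76 to 10.3) and 17.4% in the lung with a high burden (11.4 to 25). As a share of all cells the values were 0.647% (0.370 to 1.05) and 0.758% (0.481 to 1.14), which overlapped. Ciliated-like cells made up 22.8% and 8.33% of the epithelium and AT2-like cells 43.1% and 33.3%. Recovery of each cell type by the dissociation was not measured, so shares lost in the tissue and in the digestion cannot be told apart.

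**Figure D3:**
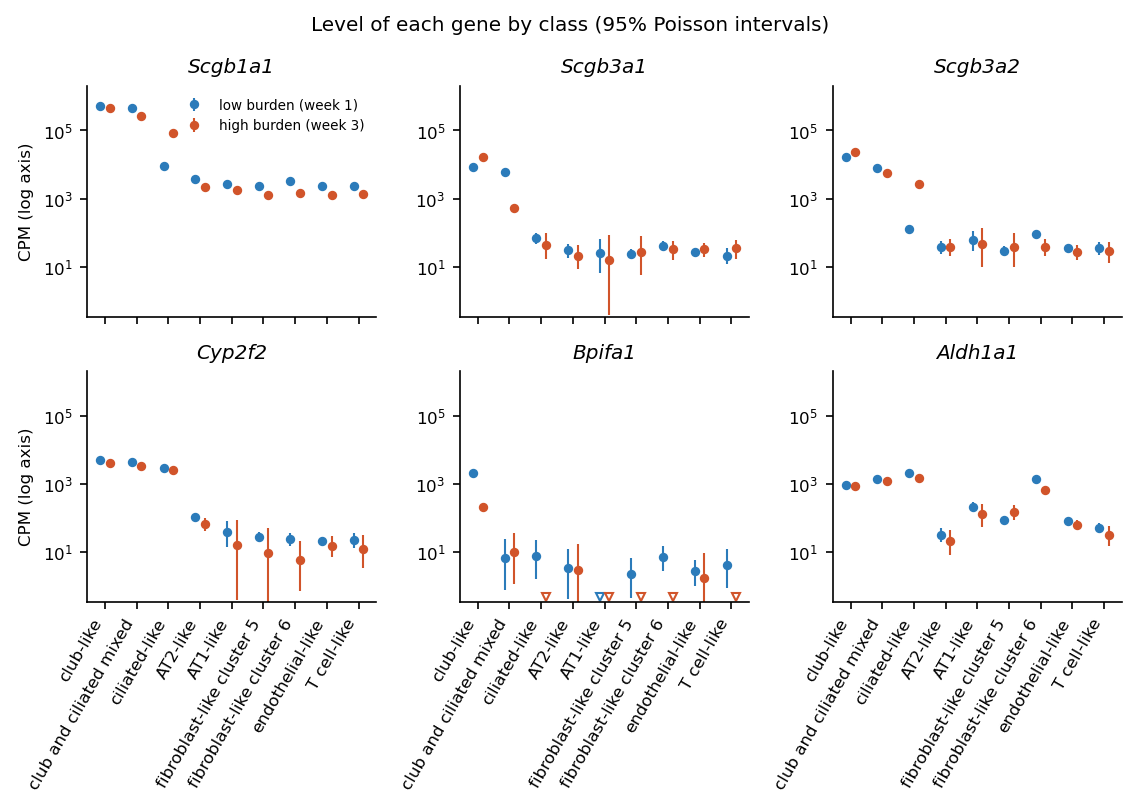
Level of each of the 6 genes (CPM, log axis) by cell class in the lungs with a low and a high metastatic burden, with exact 95% Poisson intervals as bars, open triangles for 0 UMIs, and the fibroblast-like cells split into cluster 5 (led by Dcn and Pi16) and cluster 6 (led by Tcf21). Scgb1a1 falls from 524655 CPM in club-like cells to 3912 CPM in AT2-like cells at low burden, Cyp2f2 stays at 2917 and 2599 CPM in ciliated-like cells, and Aldh1a1 is high again in the Tcf21-led fibroblast-like cells.

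In the airway against the alveoli, Cyp2f2 and Aldh1a1 marked ciliated-like as well as club-like cells. Scgb3a2 stood at 130 and 2652 CPM in ciliated-like cells, 3.40-fold and 87.8-fold the level outside the epithelium. Scgb3a1 stood at 70.3 and 45.6 CPM there. Once cells with Scgb1a1 over 1% of UMIs were left out, Scgb3a1 and Scgb3a2 could not be told from the level outside. Cyp2f2 stood at 2917 and 2599 CPM in ciliated-like cells and was found in 100% of them after every cell was thinned to 3000 UMIs (51 and 11 cells). In T cell-like cells, which should lack it, thinned cells held it in 11 of 107 (10.3%) and 1 of 35 (2.86%), with 76 shallower low-burden cells left out. Unthinned, 15 of 183 and 4 of 35 T cell-like cells held a Cyp2f2 UMI at median depths of 3155 and 7565 UMIs.

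Some ciliated-like cells held much Scgb1a1. It was over 1% of UMIs in 6 of 56 and 3 of 11 of them, with highest shares of 12.8% and 25.4%, and these cells raised the class to 9358 and 83525 CPM over cell medians of 3603 and 4381 CPM. Without them, Scgb1a1 was 3761 and 3250 CPM, 1.51-fold and 2.54-fold the level outside the epithelium. Cyp2f2 was 2699 and 2238 CPM in the same remaining cells, 110-fold (95.9 to 126) and 171-fold (143 to 204) the level outside. Aldh1a1 was 1852 and 1539 CPM in them, 7.77-fold and 45.9-fold the level outside. The levels outside were 2489 and 1279 CPM for Scgb1a1, 24.6 and 13.1 for Cyp2f2 and 238 and 33.6 for Aldh1a1. These folds thus do not compare the lungs. Scgb3a1 (29.8 and 71.3 CPM) and Scgb3a2 (59.6 and 71.3 CPM) were not distinguishable from the level outside the epithelium in the same remaining cells. The cells left out were picked by another of the 6 genes, Scgb1a1. At high burden these 3 cells held 98, 42 and 204 of the 349 Scgb3a2 UMIs of the class.

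The mixed airway cells lay between the club-like and ciliated-like cells in Scgb1a1, with 442550 CPM in the low-burden and 269029 CPM in the high-burden library. They held Cyp2f2 at 4392 and 3373 CPM, Aldh1a1 at 1415 and 1219 CPM and Scgb3a2 at 7928 and 5552 CPM. Scgb3a1 again sat in single cells, with 1769 of 1777 UMIs in 1 low-burden cell and 104 of 111 UMIs in 1 high-burden cell, and the latter also held 4 UMIs of Tff2 and 19 of Muc5b. Bpifa1 gave 2 and 2 UMIs in all.

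Alveolar cells held far less Scgb1a1 and Cyp2f2 than airway cells. AT2-like cells held Scgb1a1 at 3912 and 2255 CPM, and without the 2 and 1 cells over 1% (highest 8.70% and 2.56%) at 2806 and 1781 CPM, 1.13-fold (1.07 to 1.19) and 1.39-fold (1.28 to 1.51) the level outside. In the same remaining cells Cyp2f2 stood at 92.6 and 61.9 CPM, 3.77-fold (2.75 to 5.07) and 4.74-fold (2.88 to 7.39) the level outside, and 23.3% and 20.5% of AT2-like cells held it at 3000 UMIs. AT1-like cells held Aldh1a1 at 216 and 128 CPM, 0.906-fold (0.626 to 1.27) and 3.82-fold (1.65 to 7.55) the level outside. AT2-like cells held it at 32.6 and 21.2 CPM, 0.137-fold (0.0822 to 0.214) and 0.633-fold (0.254 to 1.31) the level outside. These Aldh1a1 folds are set against 238 CPM outside at low and 33.6 CPM at high burden, so they do not compare the lungs.

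By Scgb1a1 level, club-like cells came first and mixed airway cells next in both lungs. Ciliated-like cells followed at high burden, and at low burden smooth muscle or pericyte-like cells stood at 10411 CPM, which rested on 1 cell, and ciliated-like cells next. AT2-like cells came below these, and without their 2 low-burden cells over 1% they stood at 2806 CPM, under alveolar macrophage-like cells. Further down, neighbors in the order overlapped. In the lung with a low burden, alveolar macrophage-like cells stood at 2906 CPM (2827 to 2986) and AT1-like cells at 2792 CPM (2537 to 3066). In the lung with a high burden, the interval of AT1-like cells, 1781 CPM (1465 to 2145), reached that of AT2-like cells, 2255 CPM (2096 to 2423).

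Aldh1a1 was the only one of the 6 genes with most of its UMIs outside the epithelium, 60.2% at low and 62.2% at high burden. Outside the epithelium it was highest in a fibroblast-like cluster led by Tcf21, a transcription factor of lipid-storing lung fibroblasts, with 1440 CPM at low burden and 671 CPM at high burden. A fibroblast-like cluster led by Dcn and Pi16 held 88.3 CPM at low burden and 151 CPM in 18 cells at high burden. Mesothelial-like cells, which cover the lung surface, held 288 and 179 CPM. Metastatic-like cells held 11.7 CPM, monocyte or macrophage-like cells of the high-burden lung 13 CPM and alveolar macrophage-like cells of the low-burden lung 31.9 CPM.

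Scgb1a1 was found in every cell outside the epithelium. Setting aside 2 low-burden cells and 1 high-burden cell with more than 1% of Scgb1a1, each of 2225 and 2900 cells held at least 1 UMI, with medians of 11 (1 to 111) and 19 (1 to 109). The level per cell was narrow, with a median of 2489 CPM at low burden (5th to 95th percentile 1325 to 4297) and 1293 CPM at high burden (820 to 2090). These counts rose with the total UMIs of the cell. In the low-burden library the median was 7 UMIs in cells with under 3000 UMIs and 30.5 UMIs in cells with 12000 to 24000 UMIs. In the high-burden library it was 9 UMIs in cells with 3000 to 6000 UMIs and 38 UMIs in cells with at least 24000 UMIs. On log2 scales the slope was 0.862 and 0.845 per doubling of depth, with correlations of 0.747 and 0.870 over cells that share a library and whose totals contain the Scgb1a1 UMIs. The level in CPM was lower in the deeper of these ranges, 2006 against 2768 CPM in the low-burden library and 1169 against 1550 CPM in the high-burden library.

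**Figure D4:**
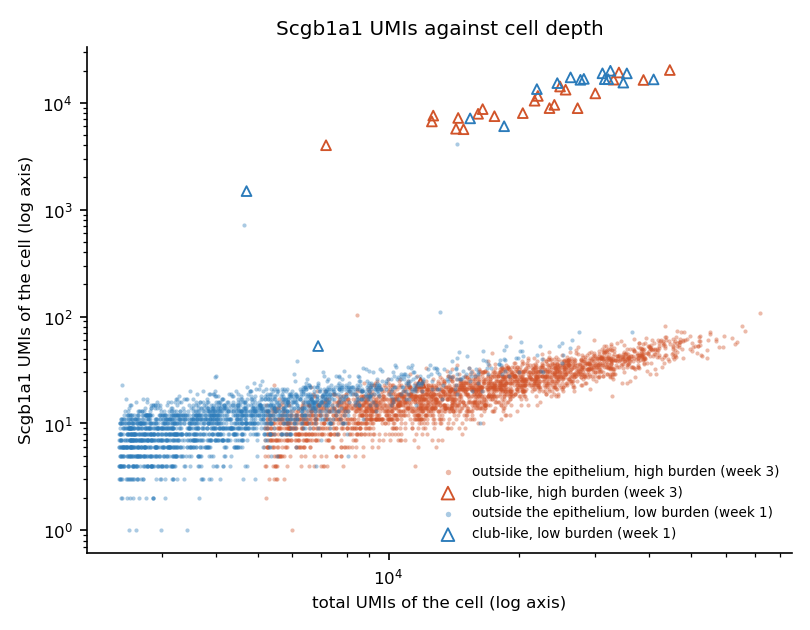
Scgb1a1 UMIs against total UMIs of each cell outside the epithelium (points) and each club-like cell (triangles) on log axes, in the lungs with a low and a high metastatic burden. Points outside the epithelium rise along a band in each lung with slopes of 0.862 and 0.845 on log2 scales, and no cell lies at 0.

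Across the cell types outside the epithelium, the level of Scgb1a1 hardly varied once cells with Scgb1a1 over 1% of UMIs were set aside. That of Aldh1a1 varied widely. The ranges are over the 15 clusters of each library with at least 20 cells, all without the cells over 1%. Scgb1a1 ran from 2050 to 3018 CPM at low burden, 1.47-fold, and from 1191 to 1597 CPM at high burden, 1.34-fold. Scgb3a1 ran from 12.0 to 37.1 and from 12.1 to 50.9 CPM, Scgb3a2 from 20.2 to 64.7 and from 23.4 to 46.1 CPM, Cyp2f2 from 18.0 to 35.9 and from 6.04 to 24.3 CPM, and Bpifa1 from 0 to 10.1 and from 0 to 4.55 CPM. Aldh1a1 ran from 30.2 to 1443 CPM, 47.7-fold, and from 11.7 to 671 CPM, 57.4-fold. With the cell over 1% kept, low-burden smooth muscle or pericyte-like cells stood above these ranges. They held 10411 CPM of Scgb1a1, 1303 CPM of Scgb3a1 and 319 CPM of Bpifa1. RNA released from broken cells can enter any droplet, and the part of such free RNA in these levels was not tested.

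The genes kept partly different proportions outside the epithelium. Cells with Scgb1a1 over 1% of UMIs were left out of the proportions outside. For every 1000 UMIs of Scgb1a1, cells outside held 9.87 and 10.2 UMIs of Cyp2f2, 1.04-fold (0.909 to 1.17) and 1.13-fold (1.04 to 1.24) the proportion in club-like cells. Scgb3a1 had 10.3 and 19.5 UMIs for every 1000, 0.643-fold and 0.522-fold that in club-like cells, and Scgb3a2 15.4 and 23.6 UMIs, 0.475-fold and 0.461-fold. Aldh1a1 had 95.7 and 26.2 UMIs, 53.2-fold and 13.6-fold. Bpifa1, with 34 and 52 UMIs, lay below its club-like proportion at low burden and above it at high burden. Thus in these cells Cyp2f2 was close to its club-like proportion, Scgb3a1 and Scgb3a2 were below theirs and Aldh1a1 far above. Mixed airway and ciliated-like cells with other proportions were present in the same lungs. With the cells over 1% kept, those outside at low burden held 966 Scgb3a1 and 32628 Scgb1a1 UMIs. In club-like cells these were 3472 and 216747 UMIs, so Scgb3a1 was then above its club-like proportion.

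Most Scgb1a1 UMIs stayed with few cells. Club-like cells held 55.8% of them at low and 63.9% at high burden, mixed airway cells 34.0% and 14.9%, ciliated-like cells 0.925% and 3.05%, and cells outside the epithelium 8.40% and 17.7%. Over all kept cells Scgb1a1 had 388394 UMIs at low burden (29239 CPM) and 360635 at high burden (7007 CPM).

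Only 3 cells outside the epithelium held Scgb1a1 over 1% of UMIs. A smooth muscle or pericyte-like cell of the low-burden lung held 4139 of 14404 UMIs (28.7%), together with 664 UMIs of Scgb3a1, 456 of Scgb3a2, 166 of Bpifa1 and 36 of Cyp2f2 and with 149 UMIs of Acta2 and 55 of Tagln, which are smooth muscle genes. A low-burden fibroblast-like cell held 721 of 4645 UMIs (15.5%). A high-burden mesothelial-like cell held 104 of 8449 UMIs (1.23%).

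In AT2-like cells and in the named classes outside the epithelium with at least 20 cells in each lung, the Scgb1a1 level was lower in the lung with a high burden. The log2 ratio was -0.79 (-0.92 to -0.67) in AT2-like cells, -0.83 (-0.99 to -0.68) in T cell-like cells, -0.89 (-1.0 to -0.78) in endothelial-like cells, -0.93 (-1.05 to -0.81) in fibroblast-like cells and -0.79 in mesothelial-like cells. In club-like cells it was -0.21. Over all cells outside the epithelium with at most 1% of Scgb1a1 it was -0.96 (-0.98 to -0.94). Cyp2f2 in the same cells had a log2 ratio of -0.91 (-1.12 to -0.70), Bpifa1 of -1.54 (-2.20 to -0.88) and Scgb3a2 of -0.34 (-0.50 to -0.18). For Scgb3a1 it was -0.04, and its interval held 0 (-0.23 to 0.15). Depth per cell was higher in the lung with a high burden, and the part of depth and of free RNA in these ratios was not tested.

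Aldh1a1 outside the epithelium had a log2 ratio of -2.83 (-2.92 to -2.74), from 238 to 33.6 CPM, but within classes the ratio was smaller. In the Tcf21-led fibroblast-like cluster, which held 1390 of 1507 fibroblast-like UMIs at low burden, it was -1.10 (-1.31 to -0.90). It was -0.27 (-0.48 to -0.08) over all fibroblast-like cells, of which that cluster made up 218 of 482 cells at low and 44 of 62 at high burden, and -0.68 (-1.13 to -0.20) in mesothelial-like cells. The cells outside the epithelium at high burden included the 1396 metastatic-like cells with 11.7 CPM of Aldh1a1.

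**Figure D5:**
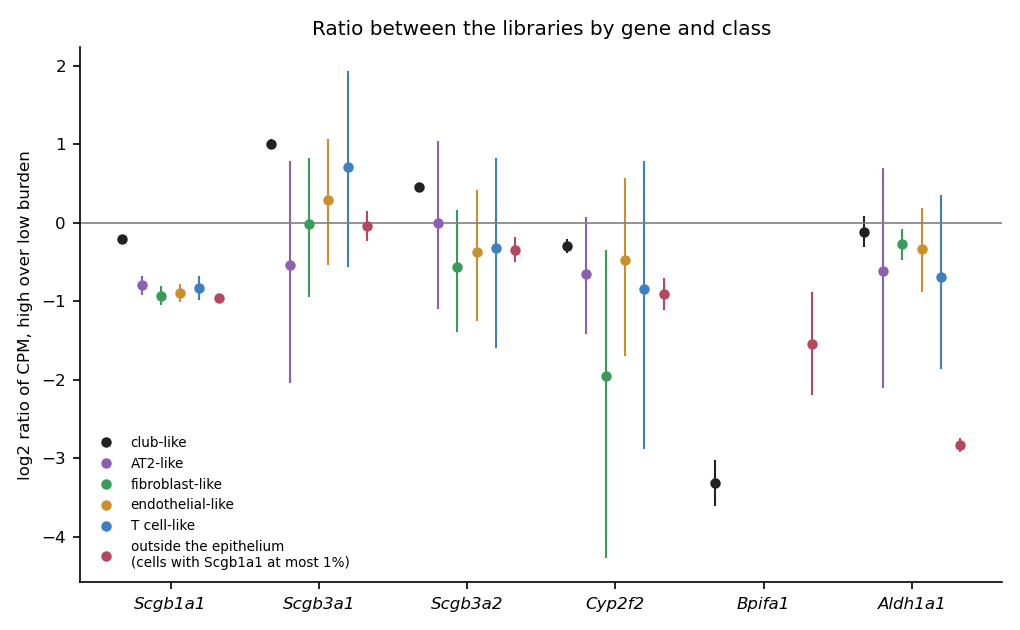
Log2 ratio of high over low burden for each of the 6 genes in 6 cell groups, with exact 95% counting intervals as bars and 0 as a line, leaving out values with under 3 UMIs in either lung. Scgb1a1 lies between -0.79 and -0.93 in AT2-like, T cell-like, endothelial-like and fibroblast-like cells and at -0.21 in club-like cells, where Scgb3a1 lies at 1.01.

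Other genes of the club cell were read in the same club-like cells by lists of named function. In xenobiotic metabolism, the chemistry by which club cells clear inhaled compounds, 19 of 24 genes had at least 20 UMIs. Of these, 0 were 2-fold or more higher and 2 were 2-fold or more lower at high burden, where 11.0% and 3.86% of the 2979 genes were. Counting intervals lay below 0 for 11 of them and above 0 for 1, where 5.34% of the 2979 genes had an interval below 0 and 15.9% one above 0. Whether an interval leaves 0 out depends also on the UMIs of a gene. Of the 2979 genes, 1192 had at least 50 UMIs, while most of the 19 did, so these shares are not matched for UMIs. The median log2 ratio of the 19 was -0.47, where that of all other genes was 0.22. Cbr2, a carbonyl reductase, went from 7768 to 7201 CPM (log2 ratio -0.11) and Gstm1, a glutathione transferase, from 709 to 586 CPM (-0.28). Cyp2a5, a cytochrome P450, had the lowest ratio, -1.73 (-2.39 to -1.11), with 81 and 30 UMIs, and it has close copies with which reads may be shared. The other gene past 2-fold was Gstp1, a glutathione transferase with close copies, with 28 and 17 UMIs and a log2 ratio of -1.02 (-1.98 to -0.10). Gsto1, another glutathione transferase, had the highest, 0.87 (0.39 to 1.37), from 126 to 230 CPM. Cyp2f2 itself, which was not on the list, had -0.29.

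Of the genes that handle retinoic acid, the product of Aldh1a1, 6 of 14 had at least 20 UMIs. Of these, 1 was 2-fold or more higher, where 11.0% of the 2979 genes were. The count of lower genes is not reported here, and the median log2 ratio was -0.31. Aldh1a7 went from 123 to 124 CPM and Rbp4, a retinol carrier, from 119 to 98.3 CPM. Rara, a retinoic acid receptor, had 6 and 15 UMIs and a log2 ratio of 1.02 whose interval held 0 (-0.43 to 2.68).

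Of other airway secreted and defense genes, 14 of 20 had at least 20 UMIs, 4 were 2-fold or more higher and 0 were 2-fold or more lower, with a median log2 ratio of 0.50, where 11.0% and 3.86% of all 2979 genes were past 2-fold. Counting intervals lay above 0 for 7 and below 0 for 3, where 15.9% and 5.34% of all genes had such intervals, again not matched for UMIs. The 4 were Lcn2 (3.90), Chia1 (1.80), Muc5b (1.21) and Bpifb1 (1.19). At high burden, the 7 cells with high Scgb3a1 held 73 of 74 Muc5b UMIs and 359 of 366 Bpifb1 UMIs. Within that kind, Muc5b went from 249 to 442 CPM and Bpifb1 from 1237 to 2176 CPM. Of the 60 high-burden Chia1 UMIs, 59 were in 8 cells of the other kind. Lcn2, which encodes the iron-binding lipocalin 2, went from 6 to 110 UMIs (14.5 to 216 CPM, interval of the log2 ratio 2.73 to 5.37). Lcn2 was also higher in T cell-like cells (1 and 43 UMIs, 1.44 to 138 CPM), endothelial-like cells (1.88 to 130 CPM) and AT2-like cells (223 to 1854 CPM), and metastatic-like cells held 1566 CPM of it, and the part of free RNA in its level was not tested. Wfdc2 went from 4691 to 6746 CPM (0.52), Hp from 4604 to 3821 CPM (-0.27) and Scgb1c1 from 397 to 222 CPM (-0.84).

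Of the airway transcription factors and Notch pathway genes, which set the choice between secretory and ciliated fate, 8 of 13 found in the files had at least 20 UMIs. Of these, 0 were 2-fold or more higher or lower, where 11.0% and 3.86% of the 2979 genes were. Counting intervals left 0 out for 0 of them, where 15.9% of all genes had one above 0 and 5.34% one below. Apart from Hes1 these genes had 20 to 44 UMIs, so their intervals were wide. Hes1, a Notch target, stood at 208 and 234 CPM and Cebpa at 48.4 and 47.2 CPM. Sox2 had the highest log2 ratio, 0.85, and Foxa1 the lowest, -0.68. Nkx2-1, whose letters were searched above, stood at 38.7 and 43.3 CPM. Of 3 genes proposed as receptors of secretoglobins, none had 20 UMIs in club-like cells. Marco gave 2 and 1 UMIs, Lrp2 6 and 3 and Cubn 0 and 0. Elsewhere, Marco, a scavenger receptor, stood at 53.2 CPM in alveolar macrophage-like cells at low burden, and Lrp2, the endocytic receptor megalin, at 115 and 63.7 CPM in AT2-like cells.

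The genes whose pattern over cell types was most like that of Scgb1a1 were found among 11310 genes by the correlation of log2(CPM + 10) over 21 class and library pairs with at least 20 cells. They were Gabrp (0.951), Ltf (0.948), Bpifb1 (0.930), Pon1 (0.905) and Reg3g (0.90). For Aldh1a1 they were Fam13a (0.899), Gstm2 (0.866), Cdkn1c (0.844), Ces1d (0.828) and Klhdc8b (0.814). Pairs share 2 libraries and a single club-like value, that of the high-burden lung, since the 16 low-burden cells fell under the limit, and so a gene high in that value alone ranks near Scgb1a1.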

How the data were processed

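Droplet single-cell RNA sequencing (10x Genomics) of 2 dissociated lungs was used, with groups from the sample titles. The deposited values are raw UMI counts per gene and cell, which the authors made with Cell Ranger 2.0.2 on mm10 with the PYMT sequence added, per the submitters' processing notes. The study aggregated the libraries, but medians of 3971 and 13795 UMIs per cell differ, so depth was taken as not equalized. The authors' cell names were not used here.

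Cells with 1000 to 7000 genes and at most 10% mitochondrial UMIs were kept, the limits of the study (195 low-burden and 88 high-burden cells were removed). The 2000 most variable genes without the 6 members gave 10 components and Leiden clusters (resolution 1, scanpy 1.11.5, leidenalg 0.10.2), and the epithelial clusters were clustered again, where the study used density peaks. Classes were named from 216 markers found in the files, when at least 3 markers of a list were in 25% of cells and 2-fold over the median cluster. This scoring was set after the clusters were seen. Another compartment at 70% of its markers, or a second epithelial list at 50%, made a cluster mixed. Names were rebuilt, which can itself make results differ from the study. Doublets were kept: Scrublet marked 9 (0.364%) and 7 (0.231%) cells, too few to rely on.

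Counts were summed by class and scaled to CPM, with exact Poisson (levels), Clopper-Pearson (shares) and conditional binomial (ratios) intervals, in scipy 1.17.1. With 1 library per group no p-value exists. The scripts were checked on simulated data. The members and gene lists were chosen with earlier results of these data known. All 6 members are named. From each list the 2 highest levels and the highest and lowest ratio are named (at least 20 UMIs over both libraries), plus the 5 genes most like Scgb1a1 and Aldh1a1 (at least 200 UMIs), genes that mark a class and list members past 2-fold, and 1 gene that this rule names is not reported here. The secreted genes set beside the Scgb3a1 kinds, Nkx2-1 and the levels of Lcn2, Marco and Lrp2 in other classes were chosen after their values were seen. Positions are from GENCODE M21 and upstream sequences from RefSeq. Alternatives were other filters, clusterings, scalings and thinning, and cells or clusters left out.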

Additional observations from a re-analysis of the deposited data

Results flagged for a closer look

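Scgb3a1 and Scgb3a2 went in opposite directions in club-like cells and in the sum of all cells outside the epithelium. For Scgb3a1 the log2 ratio between the lungs (high burden over low) was 1.01 in club-like cells and -1.79 outside, and for Scgb3a2 it was 0.45 and -1.47. The difference between the classes was not tested, since each lung gave 1 library. The values outside rested on the 2 low-burden cells and 1 high-burden cell in which Scgb1a1 was over 1% of UMIs, of which 1 smooth muscle or pericyte-like cell held 664 UMIs of Scgb3a1 and 456 of Scgb3a2. Without these cells the log2 ratios outside were -0.04 (-0.23 to 0.15) and -0.34 (-0.50 to -0.18).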

How the results depend on the processing

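Of 33 log2 ratios, 17 had a counting interval that left 0 out, and all 17 kept their direction in all 158 alternatives run on them. Of the 16 whose interval held 0, 7 changed sign under at least 1 alternative. Direction says nothing of size: Bpifa1 in club-like cells went from -3.32 to as little as -0.16, and Scgb3a1 outside the epithelium from -1.79 to -0.04. For the main results of all kinds, 50 alternatives moved past the limit set for the reported value, mostly its counting interval, and 105 did not. For the other results these were 56 and 298. At Leiden resolution 0.5 the club-like cells joined the mixed airway cells (24 and 34 cells) and gave no value of their own. Clustering with the members kept, or without cells marked by Scrublet, gave the same numbers of club-like cells. Alternatives that include the mixed airway cells, or leave out cells by their Scgb1a1 share, were chosen after seeing the data. No paired analysis was possible because each group holds 1 library.

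The Scgb1a1 level in club-like cells at low burden, 524655 CPM, was 520384 with the looser cell filter, 1187368 with the 6 genes out of the total, 489104 thinned to 3000 UMIs, 489182 as a mean over cells, 490228 with the mixed airway cells and 533407 without the cell under 1%. At high burden, 453048 CPM, it was 903149 with the 6 genes out of the total, 449783 thinned, 449667 as a mean over cells, 401087 with the mixed cells and 463812 without the cell under 1%. The log2 ratio of Scgb1a1 in club-like cells, -0.21, was -0.20 (looser filter), -0.39 (6 genes out of the total), -0.12 (thinned), -0.12 (mean over cells), -0.29 (with the mixed cells), -0.20 (without the cell under 1%), -0.19 (without the top cell) and -0.43 (median-of-ratios scaling). For Scgb3a1, 1.01, it was 0.83 with the 6 genes out of the total, 0.68 thinned, 0.57 as a mean over cells, 0.74 with the mixed cells, 1.28 without the top cell and 0.80 by median of ratios. For Scgb3a2, 0.45, it was 0.27 with the 6 genes out of the total and 0.24 by median of ratios. For Cyp2f2, -0.29, these were -0.48 and -0.51, and -0.11 thinned. For Bpifa1, -3.32, it was -3.75 thinned, -3.76 as a mean over cells, -2.99 with the mixed cells and -0.16 without the top cell. For Aldh1a1, -0.11, it was 0.11 thinned and -0.33 by median of ratios.

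In other classes, the Scgb1a1 ratio in AT2-like cells was -0.66 without cells over 1%, in T cell-like cells -0.53 thinned, and in fibroblast-like cells -0.75 without cells over 1% and -0.76 without the top cell. Outside the epithelium, -1.19, it was -1.24 with the looser filter, -1.04 thinned, -1.05 as a mean over cells, -0.96 without cells over 1% and -1.0 without the top cell. The club-like share of the high-burden epithelium, 17.4%, was 25.8% with the mixed cells. Scgb1a1 made up 86.5% of the members' UMIs outside the epithelium at low burden and 87.1% with the looser filter. Cyp2f2 was found in 4.92% of T cell-like cells at low burden when thinned to 2000 UMIs. With no filter on low counts, 19.4% of genes were 2-fold or more higher and 18.0% lower in club-like cells. Apart from those that follow from how an alternative is built, causes were not tested. Depth limits Scgb3a1, Scgb3a2, Cyp2f2 and Bpifa1 outside the airway, where single classes held few UMIs.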
